A study of Mus musculus with 2 samples.

Results

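Regulatory T cells that express the transcription factor Foxp3 were described in stimulated spleen cells of allergic mice, as 193 of 16829 cell barcodes. Foxp3 directs the regulatory program of CD4+ T cells. It maintains the high-affinity IL-2 receptor and CTLA-4 and restrains the cell's own production of IL-2, so that these cells depend on IL-2 made by others. Regulatory T cells limit immune responses through the withdrawal of IL-2, the removal of costimulatory ligands by CTLA-4, the activation of latent TGF-β and the release of IL-10, and in allergy they are studied as cells that could hold back the Th2 response to the allergen.

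The members were chosen by transcript counts. A cell had to hold at least 200 detected genes and at most 10% mitochondrial unique molecular identifiers (UMIs, each standing for 1 captured RNA molecule), at least 2 UMIs of Cd3d, Cd3e, Cd3g and Trac together, no UMI of the B cell genes Cd79a and Ms4a1, the NK cell gene Ncr1 or the myeloid gene Lyz2, and at least 1 UMI of Foxp3. Of the 16829 barcodes, 16325 passed the quality filter and 1952 lay in the T cell gate. Of these, 193 held Foxp3, which was 9.89% (exact 95% interval 8.60 to 11.3). The comparison group was the 1204 cells of the same gate with no UMI of Foxp3, Cd8a or Cd8b1. The other 555 Foxp3-negative cells, with a CD8 transcript (the CD8 group), are given beside them for depth, Il10 and some cytokines. Since the measured counts chose the members, the levels of Foxp3, of the CD3 and Trac genes, of the CD8 genes and of the excluded genes are not results, and the values below describe these cells and test nothing.

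All mice were wild-type C57BL/6, 8 weeks old, and were sensitized to ovalbumin (OVA) on days 0 and 10. They then stayed untreated, received the Standard desensitization with OVA in PBS on days 20, 22 and 24 and OVA in alum on days 40 and 60, or received on days 20, 22 and 24 the DCIR2-Fp, an antibody fusion protein that carries OVA to the DCIR2 receptor of conventional type 2 dendritic cells. On day 80, spleen cells were stimulated for 3 h with PMA and ionomycin. Leukocytes (CD45+) without and with CD11b were then sorted apart, mixed in equal parts, frozen, and sequenced as 1 pool in which antibody-borne DNA tags (hashtags) mark the pooled cell suspensions. The figure legends of the study differ here and mix the CD11b+ cells with total spleen cells. The methods of the study also name an OVA challenge, which the labels do not. The 3 conditions carry 4 hashtags, numbered 9, 10, 11 and 12. No source says which condition a hashtag belongs to, so the therapies were not compared. Cells of the pool are not replicates, no p-value was computed, and all intervals cover counting error only.

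The Foxp3 T cells held 2435181 UMIs, with a median of 10259 per cell (1616 to 60389), against a median of 7316 in the comparison group and 10334 in the CD8 group. The level of a gene is its UMIs summed over the cells of a group, scaled to 1000000 UMIs of that group (CPM), with an exact Poisson 95% interval. A share of cells with a UMI is also given after each cell was thinned to 1000 UMIs, because a deeper cell is more likely to show a transcript. Thinning left out 0, 1 and 0 cells of the 3 groups. The ratio of CPM between groups carries an exact conditional 95% interval. The median ratio over all genes tested was 1.07 (0.10 on the log2 scale), so that a ratio is read against 1.07 and not against 1.

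Foxp3 lies on chromosome X (7573644 to 7595245, + strand, GRCm38). The 193 cells held 739 Foxp3 UMIs, or 303 CPM. The transcript was sparse: 51 cells held 1 UMI, 60 held 2 or 3 and 82 held 4 or more, up to 18 in 1 cell. In cells that should lack the gene, the share was far lower. Among 2598 cells gated as B cells, 7 had a Foxp3 UMI (0.269%, median depth 8890 UMIs), among 3664 cells gated as NK cells 9 (0.246%, median depth 5416), and among 375 cells gated as myeloid 0, which allows a share of up to 0.979%.

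The 3 marker genes that the gate did not use went with the label. Ikzf2, which encodes the Treg factor Helios, was present in 183 of the 193 cells (94.8%, thinned 66.8%) and in 25.7% of the comparison cells (thinned 10.1%). Its level was 1305 CPM (1260 to 1352) against 183 CPM. Ctla4, the inhibitory receptor that competes with CD28 for CD80 and CD86, was present in 95.3% (thinned 73.6%) against 34.7% (thinned 16.2%), at 1890 against 325 CPM. Il2ra, the α-chain of the IL-2 receptor (CD25), was present in 99.0% (thinned 75.1%) against 78.7% (thinned 37.7%), at 1766 against 706 CPM. In the cells gated as B cells, the shares were 1.27% for Ikzf2, 14.4% for Ctla4 and 89.7% for Il2ra, so that Il2ra was the least particular of the markers among these stimulated lymphocytes. Ikzf2 was found in 39.2% of the cells gated as myeloid, at 210 CPM. All 4 markers including Foxp3 were found together in 176 of the 193 cells (91.2%), and no cell lacked all of Ikzf2, Il2ra and Ctla4.

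The markers were also present in the cells just above the Foxp3 threshold. Of the 51 cells with a single Foxp3 UMI, 88.2% had Ikzf2, 100% Il2ra and 88.2% Ctla4, at 1107, 1605 and 1774 CPM. The 82 cells with 4 or more UMIs had 97.6%, 98.8% and 98.8%, at 1402, 1889 and 1849 CPM, with a median depth of 14274 UMIs against 7275 in the cells with 1 UMI. Just below the threshold, 118 of the 1204 comparison cells (9.80%) held Ikzf2, Il2ra and Ctla4 without Foxp3, at 601, 864 and 1053 CPM. At the limit of the T cell gate, 4 Foxp3 cells had exactly 2 UMIs of the CD3 and Trac genes, and 3 of them held Ikzf2, 3 Il2ra and 3 Ctla4. Just outside it, 5 further Foxp3 cells had 1 such UMI and none of the excluded genes, and all 5 held Ikzf2, Il2ra and Ctla4.

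**Figure D1:**
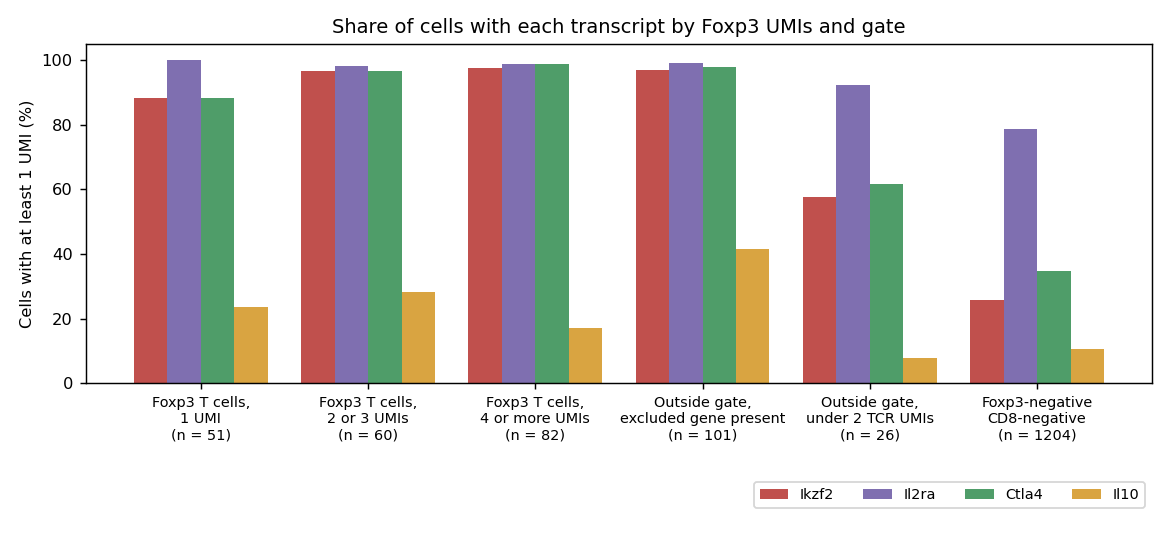
Share of cells with at least 1 UMI of Ikzf2, Il2ra, Ctla4 and Il10 (bars, percent, unthinned), in the Foxp3 T cells by their Foxp3 UMIs, in Foxp3 cells outside the T cell gate and in the comparison group. Ikzf2 and Ctla4 reach 88.2% or more in each Foxp3 T cell group and stand at 25.7% and 34.7% in the comparison group, while Il10 stays between 17.1% and 28.3% in the Foxp3 T cells.

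Cd4 itself was found in only 66 of the 193 cells (34.2%), Cd8a or Cd8b1 in 17 (8.81%) and neither in 117 (60.6%). Of the 17 cells with a CD8 transcript, 7 also held Cd4. Cd4 was scarcer still in the comparison group, where 189 cells (15.7%) held it. The absence of Cd4 or of CD8 UMIs therefore does not assign a single cell to a lineage at this depth, and the comparison group is mixed: Trdc, the constant gene of the δ-chain of the T cell receptor, was at 65.4 CPM there against 6.57 CPM in the Foxp3 T cells.

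Across the whole transcriptome, 9405 genes had at least 50 UMIs over both groups, and a gene was called when its CPM differed at least 2-fold. In the Foxp3 T cells, 693 genes (7.37% of those tested) were at least 2-fold higher and 461 (4.9%) at least 2-fold lower. With the ratios centred on their median, the counts were 549 and 549. The uncentred shares, 7.37% and 4.9%, are those beside which the list counts against the whole comparison group are read. Of the 693, 174 had under 50 UMIs in the comparison cells and so passed the filter through the Foxp3 T cells, where they were high, Lrrc32 and Ccr6 among them. Of all 693, 530 were higher in the cells of each of the 4 hashtags, and of the 461, 342 were lower in each. Among the genes with at least 10 cells and the same direction in each hashtag, the highest ratios belonged to Lrrc32, which encodes the TGF-β docking receptor GARP (18.8-fold, 43.1 against 2.29 CPM), Il1rl1, the IL-33 receptor ST2 (16.9-fold, 123 against 7.27 CPM), Tnfrsf8 or CD30 (15.7-fold, 159 against 10.1 CPM) and Lhfp (14.8-fold). They were followed by Klrg1 (14.7-fold), a receptor of terminally differentiated lymphocytes, the metallothionein gene Mt1 (13.0-fold), the chemokine receptor Ccr6 (11.4-fold) and Ikzf4, which encodes the Helios relative Eos (10.97-fold). Cep112, Pclaf, Hist1h3c, Hopx, Bmyc, Il1r2, Atp6v0d2, Ccr4, B3galt1, Cd81, Pglyrp1 and Itgae completed the 20, between 10.7-fold and 8.90-fold. Il1r2, the decoy receptor that binds IL-1 without signalling, was among the more abundant at 423 against 45.0 CPM, and Hopx, a homeodomain protein, at 313 against 31.4 CPM. Against the 189 comparison cells with Cd4, 19 of the 20 were at least 3.88-fold higher and Cep112 had no UMI in those cells. Several folds were smaller: 7.66 for Il1rl1, 3.93 for Mt1, 4.23 for Il1r2 and 4.37 for Hopx. Over all genes, 382 of 7211 tested were at least 2-fold higher against those cells and 255 lower.

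The lowest ratios by the same rule belonged to Ptprk (55.1-fold lower, 15.2 to 456), Il17a (49.0-fold, 20.9 to 151), Slit3 (43.0-fold, 7.61 to 1706), Il4, Il17f, 4930549P19Rik (34.7-fold, 6.13 to 1380), Slc4a4 (30.9-fold, 8.48 to 257), Lpl (29.5-fold, 8.08 to 245), Dpysl3 (26.5-fold, 4.65 to 1054) and Serpinb1a (25.6-fold, 7.0004 to 213). Except for Il4 and Il17f, which had no UMI, each of these had between 1 and 5 UMIs in the Foxp3 T cells. All passed the filter through the comparison cells. In the comparison group they came from few cells: Il17a from 1.58% and Lpl from 1.495% of the cells. The 189 comparison cells with Cd4 held no Lpl. The ratio of Slc4a4 to them was 1.38, with an interval (0.0718 to 81.4) too wide to give its direction.

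**Figure D2:**
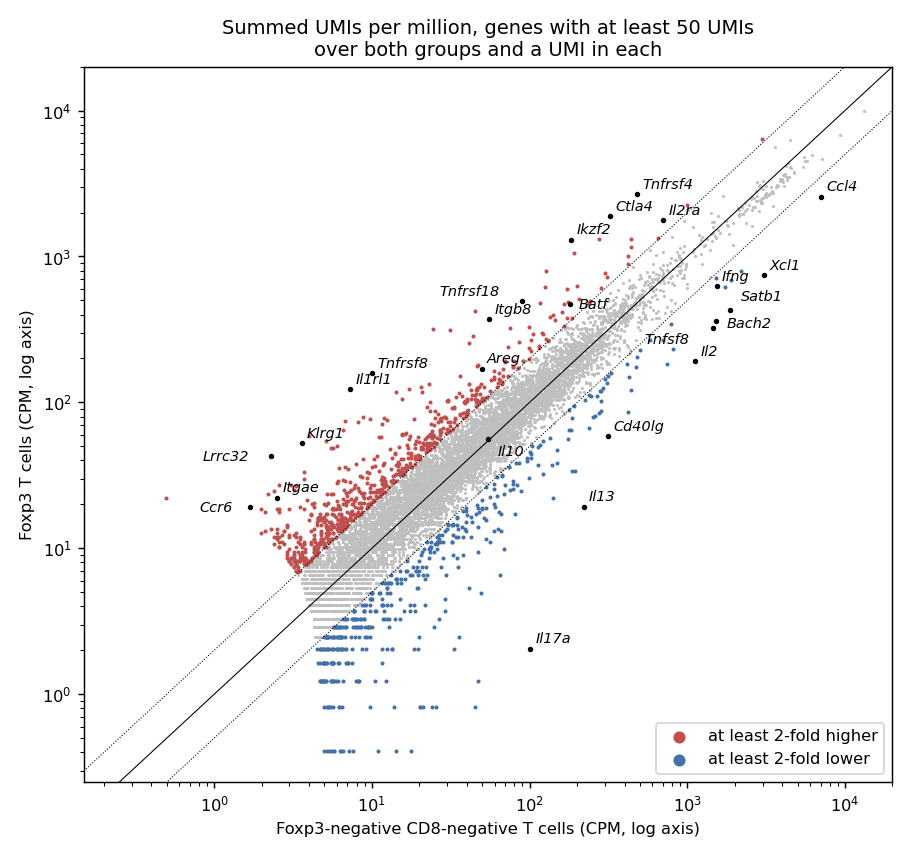
Level of each gene in the Foxp3 T cells (vertical axis) and in the Foxp3-negative CD8-negative T cells (horizontal axis), both in CPM on log axes, for genes with at least 50 UMIs over both groups and a UMI in each, without the genes of the gate. Red and blue points lie beyond the dotted lines at 2-fold, black points are named genes, and Il10 lies on the line of equal levels while Ikzf2, Ctla4 and Tnfrsf4 lie above and Il2 and Xcl1 below it.

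Among the transcription factors with a known part in regulatory T cells, 6 of 17 tested were at least 2-fold higher and 0 lower (median ratio 1.28, against 1.07 over all genes). Besides Ikzf2 (7.12-fold, interval 6.72 to 7.54) and Ikzf4, these were Prdm1, which encodes Blimp-1 (3.33-fold, 102 against 30.6 CPM), Gata3 (2.73-fold, 190 against 69.8 CPM), Batf (2.64-fold, 473 against 179 CPM) and Maf (2.48-fold, 106 against 42.8 CPM). Prdm1, Gata3, Batf and Maf are factors of effector regulatory T cells, and they also act in conventional effector T cells. Against the comparison cells with Cd4, 4 of the 6 were still at least 2-fold higher, while the ratios of Gata3 and Maf were 1.40 (1.19 to 1.65) and 1.03 (0.845 to 1.25). By hashtag, Ikzf2 was at 1606, 1123, 1354 and 1633 CPM in the Foxp3 T cells of hashtags 9, 10, 11 and 12, and at 199, 175, 149 and 266 CPM in the comparison cells. The levels of the groups did not overlap. Batf was at 435, 451, 349 and 634 CPM against 134, 163, 170 and 229 CPM. The partners of Foxp3 and the general factors stayed within 2-fold: Runx1 was at 411 against 723 CPM, Cbfb at 136 against 163 CPM, Stat5a at 412 against 321 CPM and Foxo1 at 268 against 260 CPM. Runx1 and Bcl6, the factor of follicular T cells, were more than 2-fold lower against the comparison cells with Cd4 (ratios 0.419 and 0.422).

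Of the surface genes, 9 of 17 tested were at least 2-fold higher, each of the 9 in every hashtag, and 0 lower, with a median ratio of 2.50. Over all genes, 7.37% were higher and 4.9% lower. Of the 9, Lrrc32, Klrg1 and Itgae had 23, 36 and 25 UMIs in the comparison cells and passed the filter through the Foxp3 T cells, so that the count and the median are in part set by the filter. Tnfrsf4, which encodes the costimulatory receptor OX40, was at 2662 against 478 CPM (5.57-fold, 5.37 to 5.79), Tnfrsf18 or GITR at 494 against 90.0 CPM (5.49-fold) and Tnfrsf9 or 4-1BB at 1326 against 438 CPM (3.03-fold). Izumo1r, the folate receptor 4 of regulatory and anergic T cells, was 5.76-fold higher (133 against 23.0 CPM), Itgae, the integrin chain CD103, 8.90-fold higher and Il2ra 2.50-fold higher. Tnfrsf4 was at 2369, 2879, 1967 and 2956 CPM in hashtags 9, 10, 11 and 12 of the Foxp3 T cells and at 416, 596, 370 and 588 CPM in the comparison cells. Lrrc32 was at 45.3, 39.5, 42.2 and 62.0 CPM against 3.73, 1.49, 3.36 and 0.692 CPM. All 9 were still at least 2-fold higher against the comparison cells with Cd4, with smaller folds for Tnfrsf4 (2.54), Tnfrsf18 (2.57) and Izumo1r (2.45). The other chains of the IL-2 receptor differed little, with Il2rb at 233 against 170 CPM and Il2rg at 193 against 214 CPM. Nt5e, the adenosine-forming ectoenzyme CD73, was at 60.4 against 38.8 CPM, its partner Entpd1 (CD39) at 14.8 against 15.4 CPM, and Nrp1 at 117 against 143 CPM. Nrp1 was 3.04-fold lower against the comparison cells with Cd4 (355 CPM).

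Of the checkpoint and costimulatory receptors, 3 of 12 were at least 2-fold higher and 1 lower (median ratio 1.12). Over all genes, 7.37% were higher and 4.9% lower (median ratio 1.07), so that the lower count and the median of this list were close to those of all genes. The higher receptors were Ctla4 (5.81-fold, 5.56 to 6.08), Tigit, which binds the poliovirus receptor (3.20-fold, 83.8 against 26.2 CPM), and Icos (2.15-fold, 610 against 284 CPM). The ratio of Icos to the comparison cells with Cd4 was 1.21 (1.11 to 1.32). Cd160, a receptor of cytotoxic cells, was 4.51-fold lower. It had under 50 UMIs in the Foxp3 T cells and passed the filter through the comparison cells. Ctla4 was at 1739, 1893, 867 and 2267 CPM in hashtags 9, 10, 11 and 12, and at 372, 365, 177 and 420 CPM in the comparison cells, so that hashtag 11 was the lowest of both groups. Tigit was at 99.6, 125, 57.5 and 64.3 CPM against 21.4, 29.0, 20.2 and 28.4 CPM. Lag3 and Pdcd1 were within 2-fold, at 32.0 against 26.2 CPM and 26.3 against 28.4 CPM. Their ratios to the comparison cells with Cd4 were 0.664 (0.480 to 0.918) and 0.485 (0.347 to 0.675).

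The letters just before the start sites of Ctla4 and Il2 are shown because these genes lay on opposite sides of the comparison after the same stimulus. Ionomycin raises calcium and thereby activates NFAT, and Foxp3 and NFAT are known to act together on both genes. The stretches are from RefSeq windows of GRCm38.p6, written 5′ to 3′ on the strand of the gene, with the core letters GGAAA of an NFAT site, on either strand (TTTCC), in capitals. Ctla4 lies on chromosome 1 (60887000 to 60915832 over all annotated transcripts, + strand) and Il2 on chromosome 3 (37120523 to 37125959, - strand). The windows are chr1:60908775-60909024 and chr3:37125960-37126204.
Ctla4: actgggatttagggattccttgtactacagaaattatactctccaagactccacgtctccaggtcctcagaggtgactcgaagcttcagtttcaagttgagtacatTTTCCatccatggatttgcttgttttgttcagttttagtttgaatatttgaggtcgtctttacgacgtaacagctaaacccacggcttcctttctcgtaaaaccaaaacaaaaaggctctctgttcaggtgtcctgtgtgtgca
Il2: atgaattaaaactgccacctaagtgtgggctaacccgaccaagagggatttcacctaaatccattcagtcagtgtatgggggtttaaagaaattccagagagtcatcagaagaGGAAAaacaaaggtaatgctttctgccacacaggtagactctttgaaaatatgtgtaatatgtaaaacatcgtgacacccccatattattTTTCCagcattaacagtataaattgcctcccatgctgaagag
The Il2 stretch leaves off the last 5 bases of its window of 250, which the annotation gives to an exon. The Ctla4 stretch held 1 core, starting 144 bases before the end of the printed letters, and the Il2 stretch held 2, starting 132 and 42 bases before their end. These letters are frequent: 55.6% of all 32851 RefSeq windows of 250 bases before a start hold at least 1. The forkhead letters TGTTTAC and the AP-1 letters TGACTCA, searched on both strands, were in neither window, and 3.17% and 4.46% of all windows hold them. A match is not a binding site, and no sequence here accounts for a level.

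Among the mediators of suppression, 4 of 10 tested were at least 2-fold higher, each in every hashtag, and 1 was lower (median ratio 1.34). Over all genes, 7.37% were higher and 4.9% lower. Itgb8, a chain of the integrin that frees active TGF-β, was at 372 against 55.3 CPM (6.73-fold, 6.05 to 7.498) and was found in 77.2% against 9.22% of the cells (thinned 29.0% and 3.82%). It stood at 545, 377, 280 and 473 CPM in hashtags 9, 10, 11 and 12, against 104, 57.6, 39.4 and 69.2 CPM. Lgals1, which encodes galectin-1, was 4.90-fold higher (616 against 126 CPM). Areg, or amphiregulin, a growth factor for epithelial repair, was 3.43-fold higher (170 against 49.6 CPM), and Penk, the precursor of enkephalins, 3.26-fold higher (238 against 72.9 CPM). Areg came from 88 of the 193 cells and from 88 of the 1204 comparison cells, and it was found in 0.192% of the cells gated as B cells. By hashtag, Areg was at 61.6, 253, 176 and 239 CPM against 56.0, 77.7, 38.4 and 44.3 CPM, so that in hashtag 9 the groups were close. Tgfb1 was at 166 against 196 CPM. Perforin (Prf1) was 3.74-fold lower, while granzyme B (Gzmb) was at 707 against 952 CPM and within 2-fold. Against the comparison cells with Cd4, Itgb8, Lgals1 and Areg were still at least 2-fold higher, but Penk was at 238 against 236 CPM (ratio 1.01, 0.888 to 1.15) and Prf1 at 32.4 against 47.6 CPM (ratio 0.681). Penk came from few cells, 39 of the 193 Foxp3 T cells (20.2%) and 19 of the 189 comparison cells with Cd4 (10.1%). Gzmb turned, at 2.34-fold higher (2.12 to 2.59) than the 302 CPM of those cells.

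Counted against all UMIs, Il10 was not higher in the Foxp3 T cells than in the comparison group, but it was higher than in the CD8 group. Its level was 55.8 CPM (46.9 to 66.1), against 54.6 CPM (50.1 to 59.4) in the comparison group and 32.6 CPM (28.3 to 37.3) in the CD8 group, and the ratio to the comparison group was 1.02 (0.841 to 1.24). A UMI of Il10 was found in 43 of the 193 Foxp3 T cells (22.3%, 16.6 to 28.8), in 10.7% of the comparison group and in 9.55% of the CD8 group. The Foxp3 T cells were deeper than the comparison group (median 10259 against 7316 UMIs) but not deeper than the CD8 group (10334 UMIs). After thinning, the shares were 6.22% (3.25 to 10.6), 4.24% (3.17 to 5.54) and 3.24% (1.93 to 5.08). The thinned intervals overlap, and that of the Foxp3 T cells rests on 12 cells. In the cells gated as NK cells, 1.801% had a UMI, and in those gated as B cells, some of which make Il10 when stimulated, 17.4% (72.7 CPM). The richest Foxp3 T cell held 18 of the 136 UMIs, and without it the level was 48.6 CPM. The Foxp3 T cells held 15.2% of the Il10 UMIs of the T cell gate, the comparison group 61.4% and the CD8 group 23.3%.

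The Il10 ratio depended on which cells stood opposite. Among the 189 comparison cells with a Cd4 UMI, Il10 was at 132 CPM (115 to 150) in 43 cells, and the ratio of all Foxp3 T cells to them was 0.424. Among the 118 comparison cells with Ikzf2, Il2ra and Ctla4 but no Foxp3 UMI, it was at 153 CPM, and without these 118 cells the ratio was 1.35. With each cell thinned to 1000 UMIs by a single random draw, it was 1.52. With the mean over cells of the per-cell CPM, which also gives each cell the same weight, it was 1.03. By hashtag, Il10 was at 67.0, 61.3, 7.67 and 59.7 CPM in the Foxp3 T cells of hashtags 9, 10, 11 and 12, against 57.8, 49.4, 48.0 and 40.8 CPM. Hashtag 11 was low with 2 Il10-positive cells of 19, and the others had 10 of 40, 8 of 42 and 10 of 39.

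Of the effector cytokines and ligands, 18 of 19 tested were at least 2-fold lower and 0 higher, with a median ratio of 0.187 (the 3 genes without a UMI in the Foxp3 T cells at their bound) against 1.07 over all genes, and 16 of the 18 were lower in each hashtag. Of the 18, 7 had under 50 UMIs in the Foxp3 T cells and passed the filter through the comparison cells, so that the count and the median are in part set by the filter. Against the comparison cells with Cd4, 15 of the 19 were at least 2-fold lower and 1, Xcl1, higher. Il2 was at 191 against 1120 CPM (5.85-fold lower), but at a similar 195 CPM in the CD8 group. By hashtag 9, 10, 11 and 12, Il2 was at 36.2, 9.88, 756 and 27.6 CPM in the Foxp3 T cells against 1571, 1185, 1338 and 675 CPM in the comparison cells. Hashtag 11 stood apart from the other 3, and without it the ratio was 0.116 in place of 0.171. Few cells made up these values: 28 Foxp3 T cells held Il2, and the 5 richest held 77.5% of its UMIs. In the 51 cells with 1 Foxp3 UMI, Il2 was at 570 CPM, and in the 82 cells with 4 or more at 32.4 CPM.

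Ifng, the Th1 cytokine, was at 624 against 1534 CPM (2.46-fold lower) and was found in 15.03% against 40.3% of the cells (thinned 10.9% and 23.8%), and the 5 richest of its 29 cells held 67.8% of the UMIs. It was at 1014, 281, 211 and 356 CPM in hashtags 9, 10, 11 and 12, against 1893, 1978, 1185 and 1010 CPM, so that hashtag 9 of the Foxp3 T cells reached the lowest of the comparison cells. Tnf was at 23.4 against 69.1 CPM (2.95-fold lower). Il4, the central Th2 cytokine, had 0 UMIs in the Foxp3 T cells and 488 in 37 comparison cells, at least 39.5-fold lower when 3 UMIs over the group are taken as the floor. Il13 had 47 UMIs, of which 45 lay in 1 cell, at 19.3 against 220 CPM (11.4-fold lower). Il5 was similar, with 50 of its 54 UMIs in 1 cell. In the CD8 group, Il4, Il13 and Il5 were also low, at 0.939, 2.66 and 0 CPM, while Ifng and Tnf were at 1933 and 44.5 CPM. Cd40lg, the CD40 ligand of helper T cells, was 5.34-fold lower (58.7 against 314 CPM), Tnfsf8, the ligand of CD30, 4.50-fold lower (322 against 1449 CPM), and Il21, the cytokine of follicular helper cells, 2.96-fold lower.

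The chemokines Xcl1, Ccl3 and Ccl4 were 4.12-, 2.77- and 2.76-fold lower, but not against every kind of T cell. Ccl4 was at 2563 against 7062 CPM. Against the comparison cells with Cd4, the ratios of Xcl1, Ccl3 and Ccl4 were 2.77, 1.70 and 1.16, with Ccl4 at 2217 CPM in those cells. Ccl4 was also found in 61.8% of the cells gated as B cells, at 1252 CPM, and in NK cells at 19424 CPM. The part of free RNA in the level of Ccl4 was not tested. The cytokines Il2, Ifng, Tnf and Il13 were higher in the comparison cells with Cd4 than in the whole group, at 2447, 1782, 136 and 517 CPM.

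**Figure D3:**
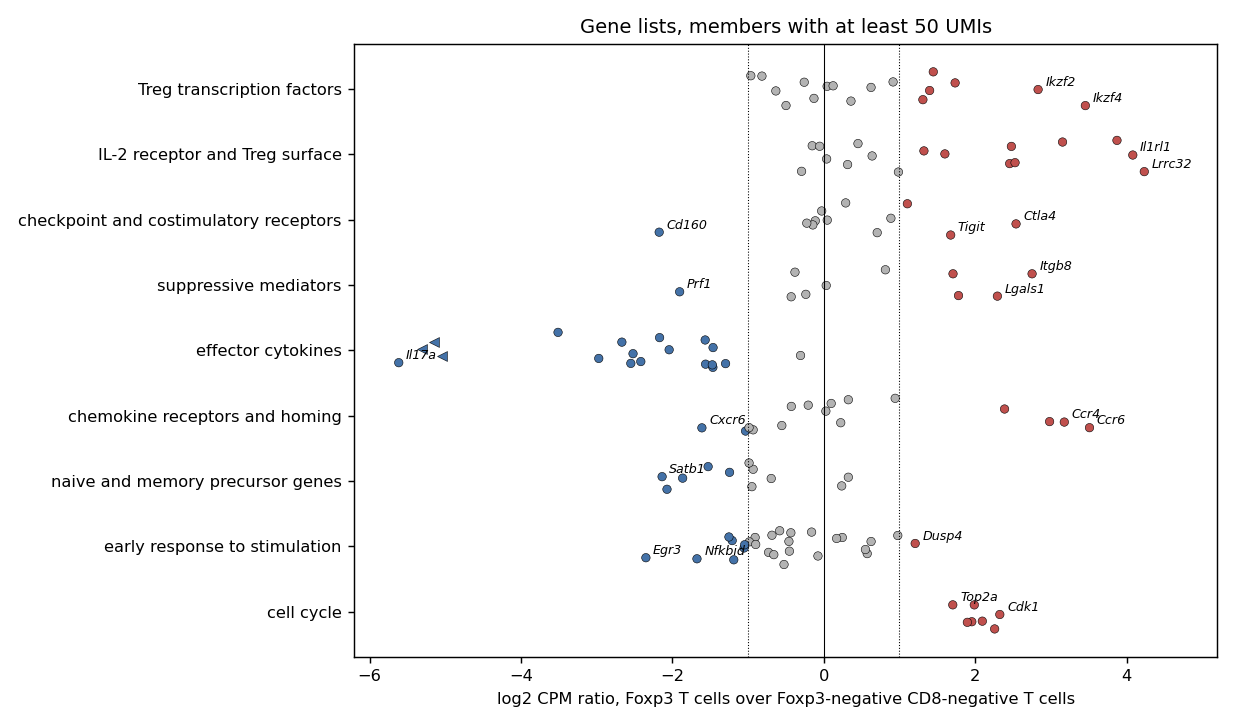
Log2 ratio of CPM between the Foxp3 T cells and the comparison group (horizontal axis) for each gene with at least 50 UMIs in 9 gene lists (rows), with dotted lines at 2-fold and triangles for genes without a UMI in the Foxp3 T cells, drawn at 3 UMIs. Of the effector cytokines 18 of 19 lie left of the line, of the surface genes 9 of 17 lie right of it, and all 7 cell cycle genes lie right of it.

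Of 16 chemokine receptors and homing genes tested, 4 were at least 2-fold higher and 2 lower (median ratio 1.04). Over all genes, 7.37% were higher and 4.9% lower (median ratio 1.07), so that the median of this list was close to that of all genes. Ccr6, a receptor of the ligand CCL20, was at 19.3 against 1.69 CPM (11.4-fold), Ccr4 at 73.9 against 8.17 CPM (9.05-fold), Ccr8 at 77.2 against 9.77 CPM (7.90-fold) and Itgb7, a chain of the gut-homing integrin, at 57.9 against 11.1 CPM (5.23-fold). Ccr4 and Ccr8 are receptors of skin- and tissue-homing T cells. Ccr8 was at 101, 51.4, 84.4 and 106 CPM in hashtags 9, 10, 11 and 12, against 9.33, 7.80, 14.9 and 11.1 CPM. Cxcr6, the receptor of CXCL16, was 3.05-fold lower. Of the 16, 5 were at least 2-fold higher and 5 lower against the comparison cells with Cd4. Over all genes, these counts were 382 and 255 of 7211. Cxcr5, the follicle receptor, was found in 11 Foxp3 T cells, of which all 11 held Ctla4, 4 held Bcl6 and 2 held Il10. Of all 193 Foxp3 T cells, 95.3% held Ctla4 and 22.3% Il10, so that these 2 counts do not set the 11 cells apart. Scrublet called 2 of the 11 doublets, and the 4 with Bcl6 had a median of 30227 UMIs. The follicular list as a whole had 0 of 6 higher and 1 lower, Il21. Against the comparison cells with Cd4, 4 of the 6 were at least 2-fold lower: Bcl6 (ratio 0.422), Pdcd1 (0.485), Sh2d1a (0.457) and Il21 (0.144). In the same comparison 1, Cxcr5, was higher (2.76), with an interval (0.890 to 11.3) that includes 1.

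Of the genes of naive cells and memory precursors, 5 of 11 were at least 2-fold lower, each in every hashtag, 6 lay within 2-fold and 0 were higher (median ratio 0.505). Of the 5, Tcf7 and Klf2 had under 50 UMIs in the Foxp3 T cells and passed the filter through the comparison cells. The count and the median are thus in part set by the filter. Satb1, a chromatin organizer, was at 427 against 1875 CPM (4.39-fold lower), and Bach2, which restrains effector differentiation, at 363 against 1527 CPM (4.201-fold lower). Tcf7 (3.64-fold), Klf2 (2.88-fold) and Lef1 (2.37-fold) were the others. Bach2 was at 250, 261, 502 and 312 CPM in hashtags 9, 10, 11 and 12, against 1317, 1269, 2193 and 1324 CPM, with hashtag 11 the highest of both groups. Il7r, the IL-7 receptor, which resting regulatory T cells express weakly, was at 67.8 against 57.5 CPM. Against the comparison cells with Cd4, 7 of the 11 were at least 2-fold lower and 0 higher, and the ratio of Il7r was 0.716.

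Transcripts induced early by stimulation were present in the Foxp3 T cells, several of them at lower levels. Nfkb1, a subunit gene of NF-κB, was found in all 193 Foxp3 T cells and Cd69 in 85.0% (90.5% of the comparison cells). Of 27 tested, 7 were at least 2-fold lower and 1 higher (median ratio 0.668). Of the 7, Egr3 and Dusp6 had under 50 UMIs in the Foxp3 T cells and passed the filter through the comparison cells. The count is thus in part set by the filter. Egr3 was 5.10-fold lower (11.1 against 56.5 CPM), and Nfkbid 3.19-fold, Fosb 2.38-fold, Nr4a1 2.31-fold, Egr1 2.28-fold, Nr4a2 2.07-fold and Dusp6 2.06-fold lower. Dusp4, which encodes a MAP kinase phosphatase, was 2.31-fold higher, but 1.28-fold (1.04 to 1.59) against the comparison cells with Cd4. Cd69 was at 423 against 788 CPM, and by hashtag 9, 10, 11 and 12 at 366, 502, 291 and 407 CPM against 671, 769, 955 and 719 CPM. The levels did not overlap, although the ratio was within 2-fold. Of the targets of IL-2 signalling through STAT5, Cish was at 209 against 136 CPM and Socs2 at 22.2 against 11.3 CPM, and their ratios to the comparison cells with Cd4 were 1.31 and 1.03. Of the whole list, 10 of 27 were at least 2-fold lower and 0 higher against those cells, beside 255 and 382 of 7211 over all genes.

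All 7 cell cycle genes tested were at least 2-fold higher, beside 7.37% of all genes, and 3 of them in each hashtag, with a median ratio of 3.97. Cdk1 and Ccnb2 had 37 and 25 UMIs in the comparison cells and passed the filter through the Foxp3 T cells, so that this count is in part set by the filter. Against the comparison cells with Cd4, 4 of the 7 were at least 2-fold higher, and the ratios of Top2a, Cdk1 and Birc5 were 1.65 (1.20 to 2.28), 1.48 (0.862 to 2.61) and 1.58 (0.926 to 2.77). Mki67 was at 42.7 against 10.8 CPM and came from 15 Foxp3 T cells (7.77%), whose median depth was 18501 UMIs. Top2a was at 55.8 against 17.1 CPM and Stmn1 at 61.6 against 16.5 CPM. The summed level of the list was 255, 96.8, 598 and 230 CPM in hashtags 9, 10, 11 and 12, against 52.2, 73.6, 77.3 and 89.9 CPM. Hashtag 11 was the highest and hashtag 10 close to the comparison cells.

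**Figure D4:**
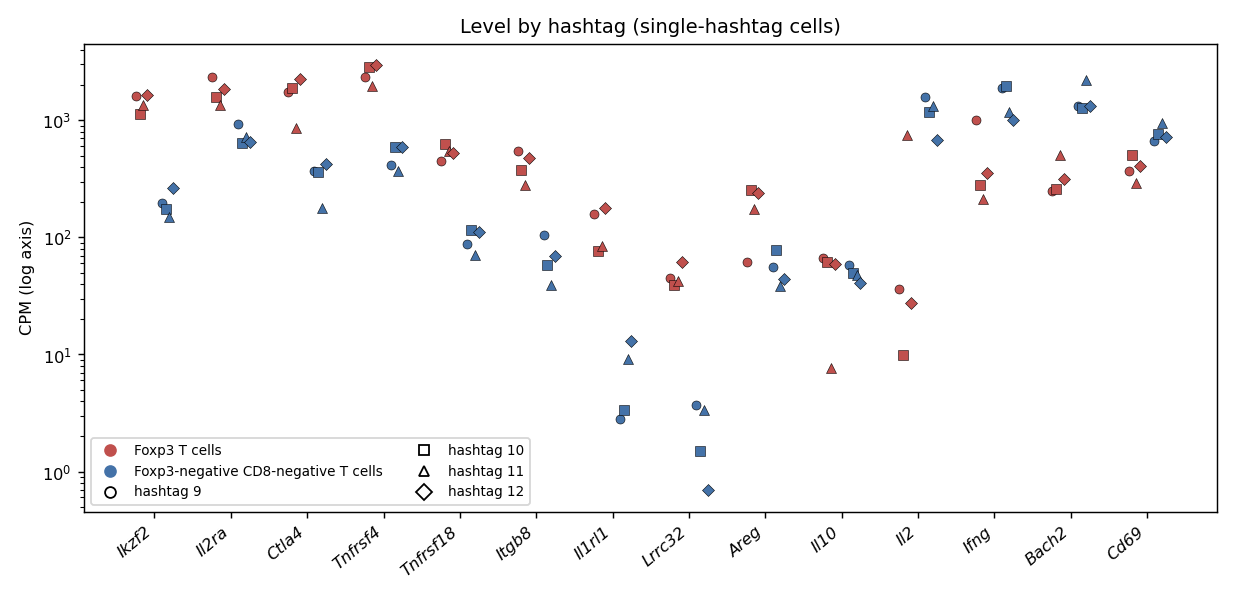
CPM (log axis) of 14 genes in the single-hashtag Foxp3 T cells (red) and comparison cells (blue) of hashtags 9, 10, 11 and 12 (marker shapes), whose conditions are not paired with the hashtags. Ikzf2, Tnfrsf4 and Itgb8 lie above all comparison values, Bach2 and Cd69 lie below them, and Il10 is at 7.67 CPM in hashtag 11 and between 59.7 and 67.0 CPM in the other 3.

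Of the 193 cells, 140 carried 1 hashtag, 49 were called as carrying several and 4 as carrying none. The share of Foxp3 T cells among the T cells of a hashtag was 17.5% in hashtag 9 (40 of 228, 12.8 to 23.1), 8.84% in hashtag 10 (42 of 475, 6.45 to 11.8), 4.97% in hashtag 11 (19 of 382, 3.02 to 7.66) and 11.96% in hashtag 12 (39 of 326, 8.65 to 16.0). Thinned to 1000 UMIs, the shares were 5.70%, 2.95%, 1.31% and 3.68%, in the same order. With each cell given to its largest hashtag after a centred log-ratio, which also assigns cells with several hashtags, they were 13.3%, 8.68%, 4.94% and 12%, so that hashtags 9 and 12 were close. The counting intervals of hashtags 9 and 11 do not overlap, and those of hashtags 10 and 12 do. How far these shares differ between mice or conditions cannot be told from 1 pool.

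Markers of other cells were looked at for each group. Of the 10 B and plasma cell genes, 6 could be tested, 1 was higher (Bank1, with 29 of its 34 UMIs in 1 cell) and 1 lower (Ebf1). Their summed level was 1119 against 938 CPM, and the most abundant was Cd74 at 656 against 541 CPM, compared with 5092 CPM in the cells gated as B cells. By hashtag 9, 10, 11 and 12, the summed level was 1567, 273, 1143 and 967 CPM against 1158, 578, 1162 and 695 CPM, so that the order of the groups differed between hashtags. Of the 6 NK cell genes, 5 were lower (summed level 203 against 709 CPM, most abundant Gzma at 121 against 443 CPM). Against the comparison cells with Cd4, 0 of these 5 were 2-fold lower, and the other, Klra8, was 4.24-fold higher (1.89 to 11.2). Of the B cell list, Ighm was 2.54-fold and Bank1 3.35-fold higher against those cells, and 0 genes were lower. Both tested genes of γδ and innate-like T cells, Trdc and Zbtb16, were lower (8.62 against 102 CPM for the list of 4). Both had under 50 UMIs in the Foxp3 T cells and passed the filter through the comparison cells, as did 3 of the 5 NK genes. Against the comparison cells with Cd4, the ratio of Trdc was 1.84 (0.684 to 5.74). Tcrg-C1 and Trdv4 were at 0 in the Foxp3 T cells. Of the 11 myeloid genes, 5 were tested and 1 was lower. This was the basophil gene Mcpt8, without a UMI in the Foxp3 T cells, which passed the filter through the comparison cells. The summed level of the 11 genes was 174 against 171 CPM, the most abundant was Cst3 at 124 against 76.1 CPM, and C1qb, Csf1r, Siglech and Mcpt8 were at 0. The part of such cells in the ratios above was not tested, except that comparison cells without Trdc, Tcrg-C1 and Zbtb16 (996 cells) gave an Il2 ratio of 0.143 and an Il10 ratio of 0.880.

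Within the Foxp3 T cells, the 43 cells with Il10 and the 150 without it had similar depths, with medians of 9666 and 10289 UMIs. Of 8133 genes with at least 20 UMIs, 237 (2.91%) were at least 2-fold higher in the cells with Il10 and 565 (6.95%) at least 2-fold lower. Gzmb was 2.37-fold higher (1313 against 554 CPM, 26 and 64 cells), Klrg1 2.45-fold (99.7 against 40.6 CPM), Entpd1 2.83-fold (30.5 against 10.8 CPM) and Cd27, a costimulatory receptor, 2.11-fold (163 against 77.2 CPM). Without the richest cell of each side, the ratios of Gzmb, Klrg1 and Cd27 were 1.87, 1.999 and 1.997, under 2-fold, and that of Entpd1 was 3.02. Ctla4 was at 2980 against 1615 CPM (1.85-fold, 1.73 to 1.96). Bach2 was 2.10-fold, Tnfsf8 2.75-fold, Il2 2.31-fold and Cd226 3.16-fold lower. Tcf7, Prf1 and Cd96 rested on 4, 3 and 2 UMIs in the cells with Il10, at 2.46-fold (0.889 to 9.49), 6.40-fold (2.11 to 31.7) and 6.95-fold (1.83 to 58.8) lower, so that the interval of Tcf7 includes no difference, and 5 of 7 cell cycle genes were lower, each with under 20 UMIs in the cells with Il10, so that they passed the filter through the cells without it. Of the markers of other cells, Ighm was 2.53-fold and the NK receptor gene Klra8 2.12-fold higher in the cells with Il10. Of their UMIs there, 26 of 53 and 14 of 15 lay in 1 cell. The B cell genes Ebf1 and Bank1 went the other way, with 0 UMIs in the cells with Il10 and 75 and 34 in those without. The part of other cells in the split was not tested. The 10 genes with the highest ratios were Il21 (9.89-fold), Arnt2, Acp5, Il1b, Ccl1, Ank3, Il1rn, Afg1l, Rnf152 and Galm (4.68-fold). For some of them 1 cell decided the value: 64 of the 74 Acp5 UMIs and all 49 Ccl1 UMIs in the cells with Il10 lay in 1 cell each, and without the richest cell of each side neither was 2-fold higher. Il21 came from 2 cells with Il10 and was 8.08-fold higher without the richest cell of each side. Il21, Arnt2, Ank3, Afg1l and Galm had under 20 UMIs in the cells without Il10 and passed the filter through the cells with it. The ranking is thus in part set by the filter.

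Il1rl1, chosen for a second split after its values were seen, marked another difference among the members. It was found in 71 of the 193 cells (36.8%, thinned 13.0%), in 2.91% of the comparison cells (thinned 0.748%) and in 0.115% of the cells gated as B cells. ST2-positive regulatory T cells are known from barrier tissues and respond to the alarmin IL-33. Against the 122 cells without it, 217 of 8133 genes (2.67%) were at least 2-fold higher and 357 (4.39%) lower. Itgae was 5.62-fold higher (48.7 against 8.67 CPM), Ccr6 3.17-fold, Areg 2.92-fold (302 against 103 CPM), Gzmb 2.62-fold (1198 against 457 CPM), Penk 2.49-fold, Ccr4 2.40-fold, Klrg1 2.37-fold, Prdm1 2.24-fold and Ikzf4 2.08-fold. Of these, Itgae and Ccr6 had under 20 UMIs in the cells without Il1rl1 and passed the filter through the cells with it. Il2ra was at 2575 against 1355 CPM. Tcf7, with 3 UMIs in the cells with Il1rl1, was 6.78-fold (2.16 to 34.3), Tnfsf8 4.03-fold and Il2 3.44-fold lower. Il10 did not go with Il1rl1: it was at 51.2 CPM in the cells with Il1rl1 and at 58.2 CPM in those without (ratio 0.878, 0.595 to 1.28), and 19 cells held both.

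**Figure D5:**
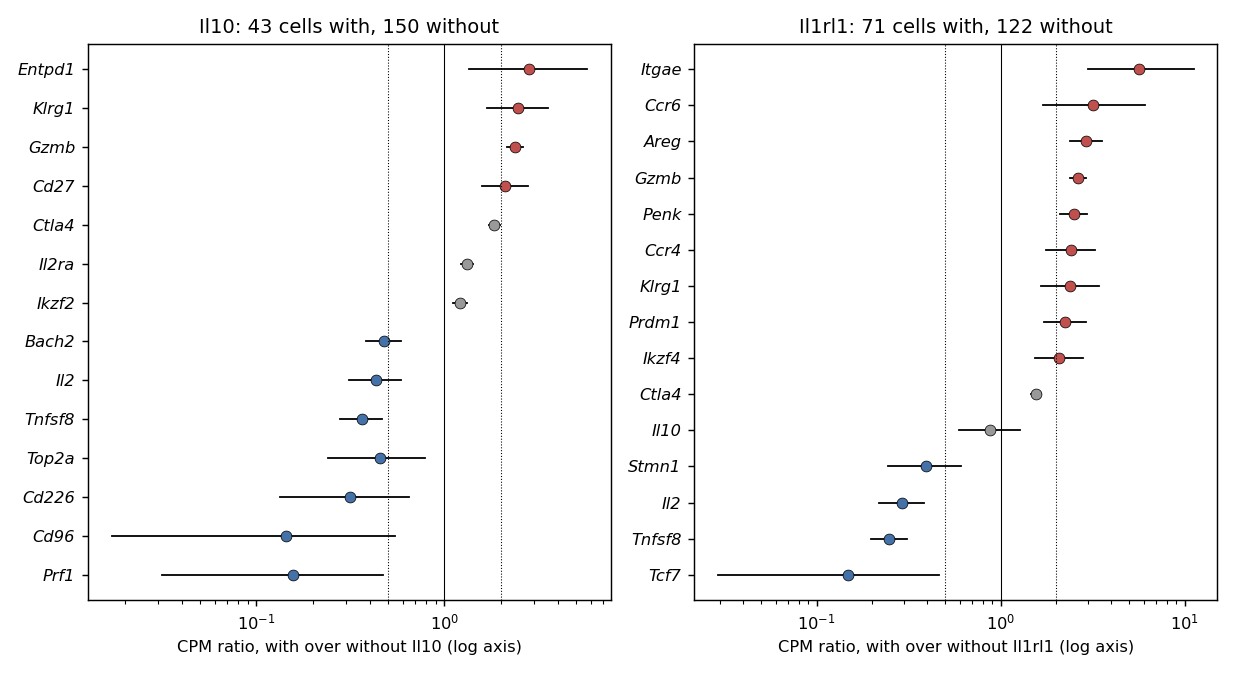
Ratio of CPM (log axis, point) with its exact 95% counting interval (line) for chosen genes, in Foxp3 T cells with Il10 over those without it (left) and with Il1rl1 over those without it (right). Red points are at least 2-fold higher and blue points at least 2-fold lower, grey points lie between, and Il2 and Tnfsf8 are lower in both panels. Gzmb, Klrg1 and Cd27 in the left panel are under 2-fold without the richest cell of each side.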

How the data were processed

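The pooled 10x 3′ v3.1 library was processed by the authors with Cell Ranger, version 7.2.0 in the labels and 7.0.0 in the matrix header, on GRCm38 (mm10). The deposited values are raw counts of UMIs per gene and cell (16829 barcodes, 32285 genes) and of hashtag antibodies, with no normalization. Whether intronic reads were counted is not given in the sources used here. It bears on long genes with much intron. The library holds 137010302 UMIs, a median of 6334 per barcode.

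Groups were gated as described above, and the members and all gene lists (14 lists, 181 entries) were chosen with earlier results of these data known. CPM, exact Poisson, Clopper-Pearson and conditional binomial intervals (95%) were computed with Python 3.11.15, numpy 2.4.6, scipy 1.17.1 and pandas 2.3.3. A gene was called at a ratio of at least 2 in either direction with at least 50 UMIs over both groups (20 within the Foxp3 T cells). For genes without a UMI, a floor of 3 UMIs over the group was used. Genes named were the markers, the list members at least 2-fold apart, 12 cytokine and receptor genes whatever their value, the 20 highest and 10 lowest ratios with at least 10 cells and 1 direction in all hashtags, and for the Il10 split the 10 highest with at least 5 cells. Further genes, such as unchanged list members and those of the Il1rl1 split, were named after their values were seen. Hashtags were assigned with HTODemux of Seurat 5.3.0 (quantile 0.85, R 4.3.3). Doublets called by Scrublet in scanpy 1.11.5 (1336 barcodes, 13 of the Foxp3 T cells) and cells with several hashtags were kept, and were left out as alternatives. Hashtag values use cells with 1 hashtag. On simulated counts (9418 genes), 49 of 50 genes set 3-fold higher, 48 of 50 set 3-fold lower and 59 of 9221 unchanged genes were called. These counts were Poisson draws of group totals without spread between cells. They therefore do not give the share of false calls in the data, where some genes have most UMIs in few cells. Some members of the lists enter the counts but are not reported here by name.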

Additional observations from a re-analysis of the deposited data

Results flagged for a closer look

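Foxp3 was also found in 153 cells outside the T cell gate, which are not among the Foxp3 T cells described. Among them are the 9 and 7 Foxp3 cells of the groups gated as NK and B cells. Their median depth was 16929 UMIs, and Scrublet called 66 of them doublets. In 101 of them, at least 2 UMIs of the CD3 and Trac genes stood beside a UMI of Cd79a, Ms4a1, Ncr1 or Lyz2. These 101 cells had a median of 23428 UMIs, 58 were called doublets, and 97.0% held Ikzf2, 98.0% Ctla4 and 41.6% Il10 (85.2 CPM). Another 26 had fewer than 2 UMIs of the CD3 and Trac genes and none of the excluded genes, and of these 57.7% held Ikzf2, 92.3% Il2ra and 61.5% Ctla4. The last 26 had fewer than 2 such UMIs and an excluded gene, and 23.1% held Ikzf2 and 30.8% Ctla4. The part of doublets in these values was not tested.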

How the results depend on the processing

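Ratios of 101 named genes were recomputed under 16 alternatives, which gave 1611 values: 1278 stayed within the counting interval of the reported ratio, 322 left it, and 11, of genes at least 2-fold apart, changed direction. Bank1 turned to 0.652 without Scrublet doublets, to 0.367 with hashtag singlets only and to 0.422 without the richest cell of each group. Against the 189 comparison cells with Cd4, the ratios of Xcl1 (2.77), Ccl3 (1.70), Ccl4 (1.16), Klre1 (1.02), Klrb1c (1.38), Eomes (1.08), Trdc (1.84) and Slc4a4 (1.38) turned. The counting intervals of Klre1, Klrb1c, Eomes, Trdc and Slc4a4 include a ratio of 1, so that their direction against those cells is not known. In the same comparison, Il10 was at 0.424 and Il2 at 0.0782, and 382 genes were higher and 255 lower of 7211 tested. The Il2 ratio of 0.171 was 0.112 under a stricter quality filter (500 genes, 5% mitochondrial UMIs), 0.113 with hashtag singlets, 0.0896 with at least 2 Foxp3 UMIs, 0.143 against comparison cells without Trdc, Tcrg-C1 and Zbtb16, 0.206 thinned, and 0.116 to 0.222 when a hashtag was left out. The share of Foxp3 T cells was 7.27% with at least 2 Foxp3 UMIs and 2.87% thinned to 1000 UMIs. Thinned, 245 genes were higher and 290 lower of 4264 tested, against 693 and 461 of 9405. With at least 20 UMIs, the counts were 1055 and 889 of 11321, with at least 200 UMIs 295 and 206 of 6337, and with at least 1 UMI in each group 2556 and 1083 of 14523. The Il10 level of 55.8 CPM was 75.4 as a mean over cells and 109 thinned, and its ratio was 1.03 as a mean over cells and 1.52 thinned. In the Il10 split, 75 genes were higher and 160 lower thinned, and 78 and 173 with at least 50 UMIs. Of the 3 alternatives chosen after seeing the data, leaving out the comparison cells with Ikzf2, Il2ra and Ctla4 gave an Il10 ratio of 1.35, centring the ratios on their median gave 549 higher and 549 lower genes, and leaving out the richest cell of each group gave an Il2 ratio of 0.126 and ended no call of a list member but that of Bank1. The causes were not tested. A paired test over hashtags was not run, since no source used here says which animals or conditions a hashtag marks. Hashtag 11 holds 19 Foxp3 T cells, which limits the precision of its values.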
